A study of Caenorhabditis elegans with 6 samples.

Results

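A set of 9 genes of the L4 vulva was followed in *Caenorhabditis elegans* larvae that lack a working alg-1 gene: egl-17, zmp-1, cdh-3, lin-11, cog-1, egl-26, egl-38, nhr-67 and vab-23. They were taken by name from the platform annotation, and all 9 had a probe set annotated with their symbol alone, a probe set being a group of oligonucleotides on the array. Together they had 11 probe sets out of 22548 tested, and 9 genes out of 17118 measured, since lin-11 and cog-1 each had 2 probe sets. The study compared whole alg-1(gk214) mutant larvae with whole larvae of N2, the wild type strain, on Affymetrix arrays. There were 3 arrays per genotype, described as independent replicates. All 6 samples were synchronized L4 larvae, the last larval stage, grown at 25 °C on OP50 bacteria, and no other allele or treatment is named. ALG-1 is an Argonaute protein that binds microRNAs and represses the mRNAs they pair with, and the stated question was how expression of its targets changes when it is missing.

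The vulva is the egg-laying opening of the hermaphrodite. Its precursor cells divide in the third larval stage, and in L4 their descendants take on distinct cell types (vulA to vulF), form a stack of rings, and join the uterus where the anchor cell has broken through the basement membrane. Genetic work in the worm placed the transcription factors lin-11, cog-1, egl-38 and nhr-67 upstream of the expression of egl-17, zmp-1 and cdh-3 in particular vulval cell types. Several of the 9 genes also act elsewhere, lin-11, cog-1 and nhr-67 in neurons among them. RNA of whole larvae cannot tell a lower level per cell from fewer expressing cells, nor the vulva from other tissues. Whether the genotypes differed in their progress through L4 was not tested.

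The arrays of each genotype resembled one another closely. Pearson correlations over all probe sets were 0.998 within the mutant, 0.994 to 0.996 within the wild type and 0.968 to 0.976 between genotypes. Wild type replicate 3 stood apart in the GAPDH control, whose 3′ minus 5′ difference was −0.58 log2 there and −0.23 to −0.14 on the other 5 arrays. The brightest alg-1 probe set (177915_at) was lower on every mutant array (5.90, 6.09 and 6.09 log2) than on any wild type array (6.80, 6.83 and 6.65 log2). A second alg-1 probe set (174189_at) fell by 0.62 log2 (limma adjusted p = 0.00977), while at the remaining one (174286_at) the genotypes overlapped and differed by −0.10 log2 (adjusted p = 0.748). No source used here places these probes relative to the gk214 deletion.

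The vulval genes moved in both directions and by moderate amounts. At a Benjamini-Hochberg adjusted p under 0.05 in limma, a linear model fitted across all probe sets, lin-11, cdh-3 and vab-23 fell in the mutant and egl-26 and nhr-67 rose. The other 4 genes, egl-17, zmp-1, cog-1 and egl-38, did not pass. That is 5 of 9 genes (55.6%), against 34.6% of all genes. By direction, 2 of 9 were higher and 3 of 9 lower, against 14.4% and 20.1% of all genes.

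By probe set, 6 of 11 passed (54.5%), against 33.7% of all probe sets, with 2 higher and 4 lower, against 14.8% and 18.9%. For the same 6 probe sets the mutant and wild type arrays did not overlap. Such separation was found in 48% of all probe sets, so the members' share is near the background. No member changed by 1 log2 (2-fold) or more, a size that 4.86% of all probe sets reached while passing the threshold. The median absolute difference of the 11 probe sets was 0.43 log2, against 0.17 log2 over all probe sets. Their median difference was −0.19 log2, against −0.05 log2 over all.

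**Figure D1:**
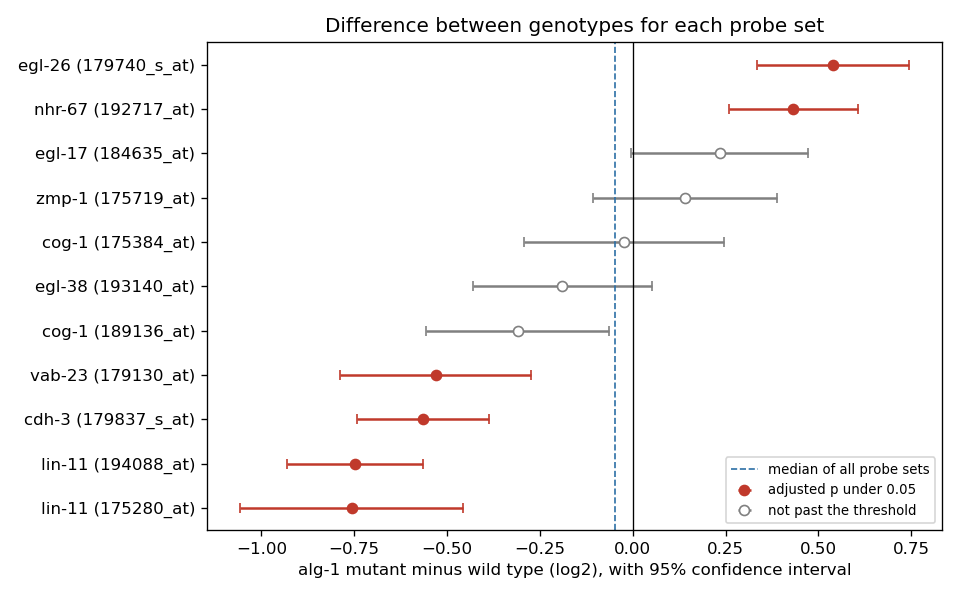
Difference between genotypes (alg-1 mutant minus wild type, log2, horizontal axis) for each of the 11 probe sets, with limma's 95% confidence interval before adjustment; filled points passed an adjusted p of 0.05 and the dashed line is the median of all probe sets. Both lin-11 probe sets lie at the low end (−0.76 and −0.75) and egl-26 lies at the high end (0.54).

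Among the transcription factors, lin-11 showed the largest change. It encodes a LIM-homeodomain protein needed for several vulval cell types, for the uterine pi cells and for the VC neurons of the egg-laying circuit. Its brighter probe set (175280_at) gave 7.29, 7.48 and 7.24 log2 in mutant larvae, against 8.32, 8.17 and 7.80 log2 in wild type larvae. Its other probe set (194088_at) read 7.11, 7.09 and 7.06 log2 in mutant larvae, against 7.70, 7.86 and 7.95 log2 in the wild type. In both, every mutant array lay below every wild type array.

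The means of lin-11 at 175280_at were 7.34 ± 0.13 log2 in the mutant and 8.10 ± 0.27 log2 in the wild type (SD, n = 3 each). This is a difference of −0.76 log2 (SE 0.13, limma adjusted p = 0.00241), or a level 0.592 times that of the wild type. At 194088_at the means were 7.09 ± 0.028 log2 in the mutant and 7.84 ± 0.13 log2 in the wild type, a difference of −0.75 log2 (SE 0.081, limma adjusted p = 0.000172). The 2 probe sets thus gave nearly the same fall. Their within-array difference averaged 0.25 ± 0.12 log2 in the mutant and 0.26 ± 0.39 log2 in the wild type (exact two-sided permutation p = 1). They did not order the wild type arrays alike: replicate 1 was the highest at 175280_at and the lowest at 194088_at.

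The gene vab-23 encodes a nuclear zinc finger protein that the worm needs for vulval morphogenesis and for closing the embryonic epidermis. It read 6.66, 6.66 and 6.70 log2 in mutant larvae, against 6.99, 7.16 and 7.46 log2 in the wild type. The mutant arrays were almost level and all lay below the wild type arrays, which were spread more widely. The means were 6.67 ± 0.022 log2 in the mutant and 7.20 ± 0.24 log2 in the wild type (SD, n = 3 each), a fall of 0.53 log2 (SE 0.11, limma adjusted p = 0.00668). Of the genes that passed, vab-23 had the largest adjusted p.

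The nuclear hormone receptor gene nhr-67, related to tailless of flies, acts in the anchor cell and in several vulval cell types. Unlike lin-11 and vab-23 it was higher in the mutant, at 5.78, 5.85 and 5.64 log2, against 5.35, 5.32 and 5.31 log2 in the wild type. The groups did not overlap, and the SD of the wild type arrays was 0.023 log2. The difference was 0.43 log2 (SE 0.076, limma adjusted p = 0.00254), a level 1.35 times that of the wild type. The signal was modest, at the 43.6th percentile of all probe sets.

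The other homeodomain gene, cog-1, did not pass at either probe set with all arrays kept and no term for replicate number. It encodes an Nkx6-type protein needed for the connection between vulva and uterus, and in a taste neuron of the worm it is a known target of the microRNA lsy-6. At 189136_at it read 5.66, 5.83 and 5.97 log2 in mutant larvae, against 5.97, 6.12 and 6.30 log2 in the wild type, so that the highest mutant array just reached the lowest wild type array. The difference was −0.31 log2 (95% confidence interval −0.56 to −0.063, limma adjusted p = 0.0561). At 175384_at, with a signal at the 34.5th percentile, it read 5.06, 4.87 and 4.85 log2 in mutant larvae, against 5.15, 4.99 and 4.70 log2 in the wild type. These groups overlapped throughout, with a difference of −0.02 log2 (95% confidence interval −0.29 to 0.25, limma adjusted p = 0.907).

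The 2 cog-1 probe sets were not shown to disagree. Their within-array difference was 0.90 ± 0.26 log2 in the mutant and 1.18 ± 0.40 log2 in the wild type (exact two-sided permutation p = 0.4, adjusted p = 0.8 over the 2 genes with paired probe sets). With 3 arrays against 3 this test cannot go below 0.1. The cog-1 difference at 189136_at lay close to the threshold, and it was −0.39 log2 without wild type replicate 1 (limma adjusted p = 0.0210) and −0.22 log2 without wild type replicate 3 (adjusted p = 0.145).

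The Pax gene egl-38, which acts in vulF to signal to the uterine uv1 cells, was read near the bottom of the signal range (21.1st percentile). Its values were 4.10, 4.26 and 4.44 log2 in the mutant and 4.33, 4.44 and 4.61 log2 in the wild type. The groups overlapped, with a difference of −0.19 log2 (95% confidence interval −0.43 to 0.051, limma adjusted p = 0.207). An interval of this width holds both no change and a level as low as 0.742 times that of the wild type.

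**Figure D2:**
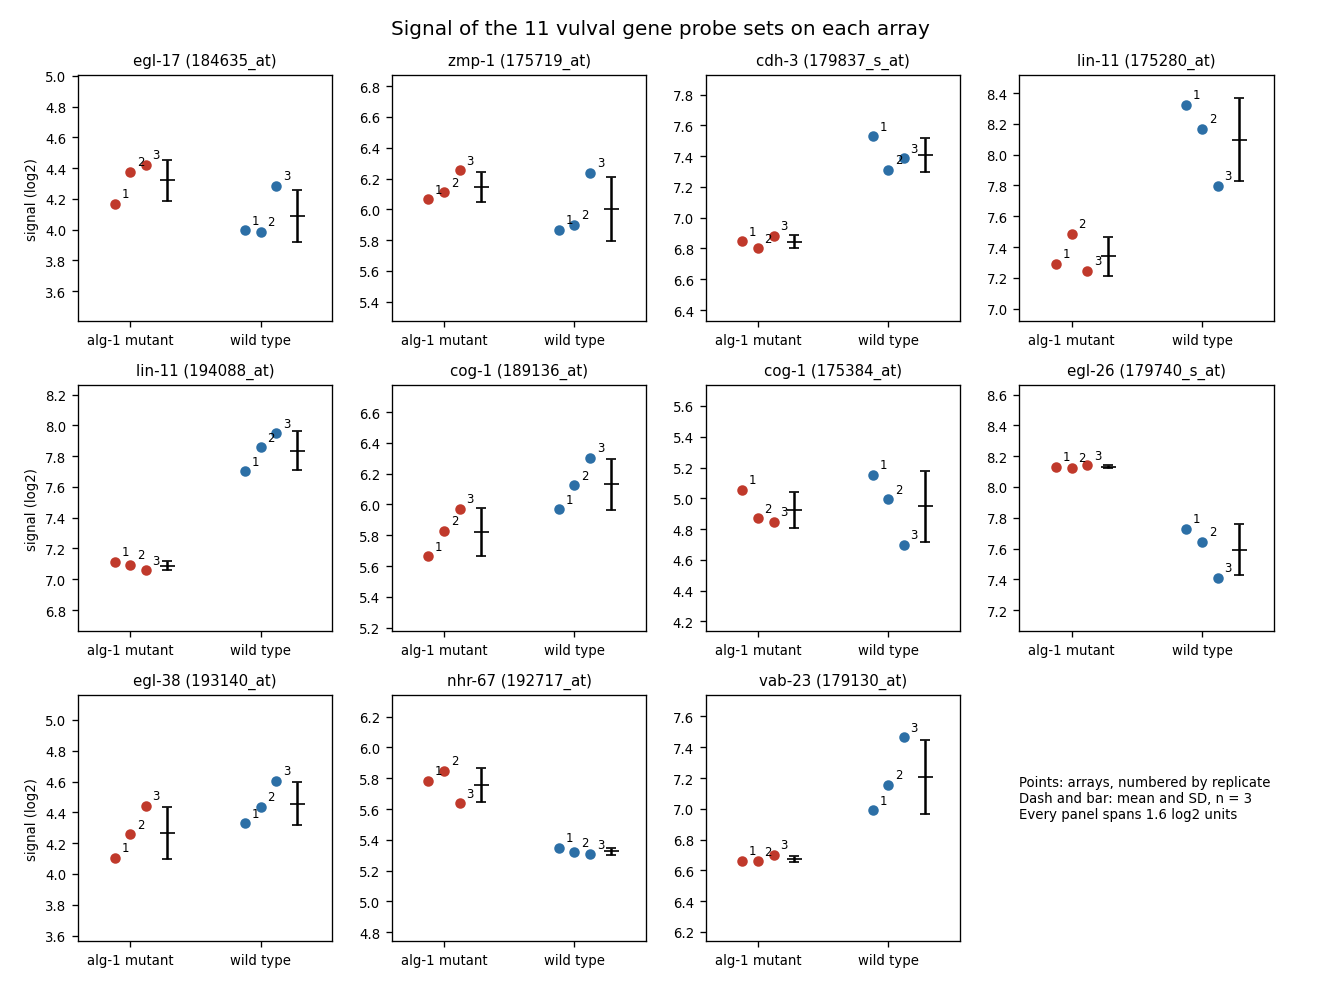
Signal (log2, vertical axis, each panel spanning the same range) of the 11 probe sets on the 3 mutant arrays (red, left) and the 3 wild type arrays (blue, right), numbered by replicate, with mean and SD. The genotypes are separate for cdh-3, both lin-11 probe sets, egl-26, nhr-67 and vab-23, and overlap in the other 5 panels.

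The genes for proteins at the cell surface and outside the cell also went both ways. The cadherin gene cdh-3, related to Fat and expressed in vulval cells, the anchor cell and other epithelia, was lower in the mutant at 6.85, 6.80 and 6.88 log2, against 7.53, 7.31 and 7.39 log2 in the wild type. The nearest arrays of the 2 genotypes were 0.43 log2 apart. The means were 6.84 ± 0.041 log2 in the mutant and 7.41 ± 0.11 log2 in the wild type (SD, n = 3 each). The fall of 0.57 log2 (SE 0.078, limma adjusted p = 0.000661) corresponds to 0.676 times the wild type level.

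The opposite was seen for egl-26, which encodes an apical membrane protein of the NlpC/P60 superfamily that shapes the vulF cells. It read 8.13, 8.12 and 8.14 log2 in mutant larvae, against 7.73, 7.64 and 7.41 log2 in the wild type. The mutant arrays had an SD of 0.0087 log2 and all lay above the wild type arrays, whose SD was 0.16 log2. The rise was 0.54 log2 (SE 0.090, limma adjusted p = 0.00187), a level 1.45 times that of the wild type. Both cdh-3 and egl-26 were read from a single probe set ending in _s_at, which Affymetrix gives to sets whose probes match several transcripts.

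The matrix metalloproteinase gene zmp-1, a marker of the anchor cell and of vulE and vulA, read 6.07, 6.11 and 6.25 log2 in mutant larvae, against 5.87, 5.90 and 6.24 log2 in the wild type. The fibroblast growth factor gene egl-17, which attracts the sex myoblasts and is a marker of vulval lineages, read 4.17, 4.37 and 4.42 log2 in mutant larvae, against 3.995, 3.98 and 4.28 log2 in the wild type. In both genes wild type replicates 1 and 2 lay below all mutant arrays, and wild type replicate 3 lay among them. The differences were 0.14 log2 for zmp-1 (95% confidence interval −0.11 to 0.39, limma adjusted p = 0.364) and 0.23 log2 for egl-17 (95% confidence interval −0.0053 to 0.47, limma adjusted p = 0.123).

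Wild type replicate 3 is the array with the divergent GAPDH ratio. Without it zmp-1 differed by 0.26 log2 (limma adjusted p = 0.0418) and egl-17 by 0.33 log2 (adjusted p = 0.0264), and both passed as higher in the mutant. The count of vulval genes that rose was then 4 in place of 2, as was the count of vulval probe sets. Over all probe sets, 3385 rose without that array, against 3340 with all 6 arrays. With all 6 arrays kept, egl-17 also passed as higher under quantile normalization (adjusted p = 0.0346), centring on hybridization controls (adjusted p = 0.0149) and array weights (adjusted p = 0.0418), and zmp-1 did not. The egl-17 signal was weak, at the 16.5th percentile of all probe sets, and the part of signal level in its values was not tested. The part of RNA quality in these values was not tested.

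Replicate 3 was the highest array in both genotypes at 5 of the 11 probe sets, those of egl-17, zmp-1, cog-1 (189136_at), egl-38 and vab-23. Over all probe sets this was so in 16.1%. The spread was larger in the wild type than in the mutant at 9 of the 11 probe sets, nhr-67 and egl-38 being the others, and at 68% of all probe sets. The median SD of the 11 was 0.11 log2 in the mutant and 0.17 log2 in the wild type.

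Taken by role, the 4 upstream transcription factors lin-11, cog-1, egl-38 and nhr-67 had differences in both directions. So did the 3 cell type markers egl-17, zmp-1 and cdh-3. Of the factors 1 fell, 1 rose and 2 did not pass, cog-1 (−0.31 and −0.02 log2 at its probe sets) and egl-38 (−0.19 log2). Of the markers cdh-3 fell and 2 did not pass, egl-17 (0.23 log2) and zmp-1 (0.14 log2). The anchor cell genes in the set were likewise split, since nhr-67 rose, cdh-3 fell and zmp-1 did not pass.

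The genes most like the members over the 6 arrays were sought among 17118 genes. For egl-26, the rise with the smallest p, these were wdfy-2 (Pearson r = 0.99996), acly-1 (r = 0.9993) and tdo-2 (r = 0.9985). For cdh-3, the fall with the smallest p among the brightest probe sets of each gene, they were Y47G6A.22 (r = 0.9992), vha-7 (r = 0.9990) and msp-59 (r = 0.9985). These correlations rest on 6 arrays in 2 groups, and 500 genes had r over 0.95 with egl-26 and 977 with cdh-3. Likeness of this kind describes the arrays and singles out no partner.

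The other genes of the vulva were counted from lists of related roles, which are to be read against the 14.4% of all genes that rose, the 20.1% that fell and the median of −0.06 log2 over all genes. Of 14 other transcription factors that act in the vulva, 8 rose and 0 fell (57.1% higher), with a median difference of 0.35 log2. The largest was bed-3, a BED zinc finger gene needed for late vulval divisions and known to act in molting, which rose by 2.68 log2 (SE 0.11, limma adjusted p = 5.93e-07). The epidermal zinc finger gene lin-26 rose by 0.90 log2, the Spalt-type gene sem-4 by 0.82 log2 and the Meis-type homeobox gene unc-62 by 0.43 log2. A dimmer unc-62 probe set differed by 0.13 log2 and did not pass (limma adjusted p = 0.261), while those of lin-26 and sem-4 rose. Dimmer probe sets of lin-1 (0.68 log2), egl-18 (0.36 log2) and elt-6 (0.42 log2) also passed as higher, though their brightest ones did not pass. The timing factor lin-29, which is required in the L4 vulva and was singled out after its value was seen, rose by 0.42 log2 (limma adjusted p = 0.00457).

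Of 7 genes of the apical matrix that fills or lines epithelial tubes such as the vulva, 5 rose and 0 fell, with a median of 1.12 log2. They included the lipocalin-related gene lpr-3 (2.45 log2), the zona pellucida domain gene noah-1 (1.96 log2), and let-4 (1.59 log2) and egg-6 (0.75 log2), which encode proteins with extracellular leucine-rich repeats. Wild type replicate 1 was the highest of the wild type arrays in all 7 matrix genes, as in lpr-3, which gave 12.4, 12.2 and 12.4 log2 in mutant larvae, against 10.8, 9.12 and 9.66 log2 in wild type larvae. Without that array 6 genes rose and the median was 1.46 log2. The matrix genes also act outside the vulva, in the epidermis and its ducts. None of the 9 vulval genes rose as far as these 4.

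Of 20 genes for vulval tube formation and cell fusion, 6 rose and 2 fell, with a median of 0.07 log2. The sqv genes make the glycosaminoglycan chains that open the vulval lumen, and of 8 measured 3 rose, 1 fell and 4 did not pass. The rises included sqv-7 (1.05 log2) and sqv-4 (0.56 log2), and the fall was that of sqv-2 (−0.25 log2, limma adjusted p = 0.0417). The fusogen gene eff-1 rose by 1.34 log2 (SE 0.17, limma adjusted p = 0.000416) and the plexin gene plx-2 by 0.47 log2. The other fusogen gene, aff-1, singled out after its values were seen, fell by 0.29 log2 (adjusted p = 0.0251) at its brighter probe set and by 1.05 log2 (adjusted p = 0.00931) at a dimmer one. A dimmer ajm-1 probe set fell by 0.50 log2 (adjusted p = 0.00185) and another rose by 0.35 log2 (adjusted p = 0.0179). The other ajm-1 probe sets, the brightest among them, did not pass. A dimmer let-502 probe set did not pass, though its brightest one rose. The count of falls was less stable, at 0 without mutant replicate 1, mutant replicate 3 or wild type replicate 3, and at 1 without mutant replicate 2, wild type replicate 1 or wild type replicate 2.

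Of 12 genes of the anchor cell and its invasion, 4 rose and 3 fell, with a median of 0.08 log2. The netrin gene unc-6 rose by 0.35 log2 and its receptor gene unc-40 by 0.35 log2. The bHLH gene hlh-2 rose by 0.31 log2. The hemicentin gene him-4 fell by 0.30 log2 at a weak signal (23.1st percentile) on a probe set ending in _s_at. A dimmer hlh-2 probe set, at the 14.6th percentile, differed by 0.08 log2 and did not pass (limma adjusted p = 0.401). A dimmer fos-1 probe set rose by 0.61 log2 (limma adjusted p = 0.0393), though its brightest one did not pass. The reverse held for ina-1, which rose at its brightest probe set alone. Without mutant replicate 1 or mutant replicate 2 the counts were 2 rises and 1 fall, and without wild type replicate 3 there was 1 fall.

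Of 10 genes of fibroblast growth factor signalling and the sex muscles, through which EGL-17 acts, 4 rose and 4 fell, with a median of 0.10 log2. The receptor gene egl-15 rose by 0.64 log2 (SE 0.094, limma adjusted p = 0.000931), the phosphatase gene clr-1 by 0.72 log2, unc-53 by 0.59 log2, and sem-2, a Sox gene that specifies sex myoblasts, by 1.47 log2 (SE 0.10, limma adjusted p = 1.25e-05). All 4 falls had adjusted p-values between 0.0266 and 0.0441. They numbered 0 without mutant replicate 2 or wild type replicate 3, 1 without mutant replicate 1 or wild type replicate 2, and 2 without mutant replicate 3. Of 7 uterine and uv1 genes, egl-13 (0.40 log2) and nlp-7 (0.25 log2) rose and 0 fell, and 1 rise was left without mutant replicate 1, mutant replicate 3, wild type replicate 1 or wild type replicate 2.

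**Figure D3:**
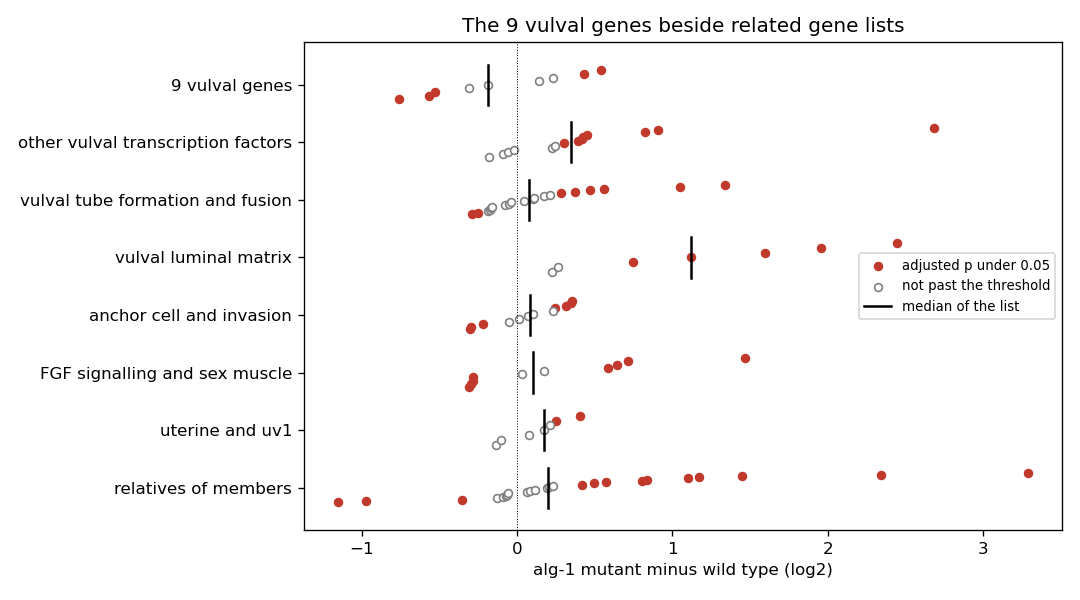
Difference between genotypes (alg-1 mutant minus wild type, log2, horizontal axis) of the 9 vulval genes and of 7 lists of related genes, 1 point per gene at its brightest probe set; filled points passed an adjusted p of 0.05 and the vertical bars are list medians. The vulval genes span −0.76 to 0.54 log2, while the matrix genes have a median of 1.12 log2 and none below 0.

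Relatives in sequence of zmp-1, cdh-3, egl-38 and lin-11 changed in both directions, and no relatives of the other vulval genes were listed. Of 24 relatives, 10 rose (41.7%) and 3 fell (12.5%), with a median of 0.20 log2. The cadherin genes cdh-12, cdh-5 and cdh-4 rose by 3.29, 2.35 and 0.80 log2. Another cadherin gene, cdh-10, singled out after its values were seen, fell as cdh-3 did, by 0.97 log2 (limma adjusted p = 0.0098) and 0.61 log2 (adjusted p = 0.0168) at its 2 probe sets. A second cdh-12 probe set rose by 2.09 log2. The other 2 cdh-12 probe sets (−0.0043 and −0.02 log2), with signals at the 13.6th and 34.4th percentiles, did not pass. Another cdh-5 probe set (−0.17 log2, 46.2nd percentile) also did not pass.

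Beside zmp-1, which did not pass, the metalloproteinase gene zmp-3 fell by 1.15 log2 (SE 0.13, limma adjusted p = 0.000194). The metalloproteinase genes zmp-6 (1.45 log2) and zmp-2 (1.10 log2), singled out after their values were seen, rose.

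Some markers of other tissues also changed, and their part in the results above was not tested. Of 8 germline markers, 0 rose and 7 fell, and their summed signal was 11.6 to 11.8 log2 in the mutant and 12.4 to 12.6 log2 in the wild type. Of 8 sperm markers, 0 rose and 7 fell (7.82 to 7.92 log2 in the mutant, 9.13 to 9.47 log2 in the wild type). Signal was below the median for 5 of these 8, and 4 were read from probe sets ending in _s_at or _x_at. Of 6 markers of the gonadal sheath and spermatheca, 0 rose and 2 fell at the brightest probe sets. Dimmer probe sets of ceh-18 (0.34 log2) and fos-1 (0.61 log2) passed as higher, and that of fln-1 did not pass. Seam cell markers were split, with 2 of 5 higher and 2 lower. Among neurons, where lin-11, cog-1 and nhr-67 are also expressed, 1 of 6 markers rose and 0 fell at the brightest probe sets. Dimmer probe sets of rab-3 (0.48 log2), snb-1 (0.28 log2) and snt-1 (0.38 log2) passed as higher, and those of ric-4 and unc-104 did not pass. Among body wall muscle markers 0 of 6 passed in limma at the brightest probe sets, with 1 lower at an unadjusted p under 0.05. Dimmer lev-11 probe sets fell by 0.89, 0.56, 0.30 and 0.23 log2. Those at 172001_x_at and 176424_at, and the dimmer unc-15 probe sets, did not pass. Of 6 intestinal markers 2 rose and 1 fell. At the brightest probe sets, lists with 0 falls or 0 rises in limma also had 0 in that direction at an unadjusted p under 0.05. Body wall muscle falls were the exception.

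The 6 calls among the vulval probe sets were insensitive to the settings tried. In every setting that tested them they kept their direction and an adjusted p under 0.05. The highest adjusted p in any setting was 0.0291, for vab-23 without mutant replicate 1. Centring the arrays on the bacterial hybridization controls moved the median difference of all probe sets to 0.08 log2 from −0.05 log2, and the rises of egl-26 and nhr-67 then stood at 0.67 and 0.57 log2, and the falls at 175280_at and 194088_at of lin-11 at −0.62 and −0.61 log2.

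**Figure D4:**
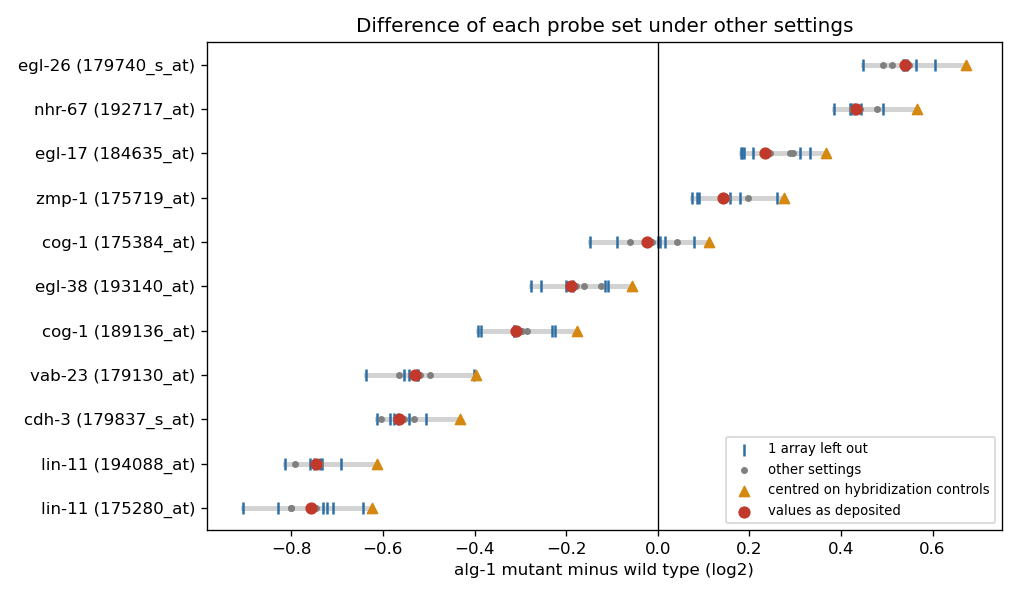
Difference between genotypes (alg-1 mutant minus wild type, log2, horizontal axis) of each probe set with the values as deposited (red), with 1 array left out (blue bars), with centring on hybridization controls (orange) and with the other settings (grey). Differences at lin-11, cdh-3, vab-23, egl-26 and nhr-67 stay on 1 side of 0 throughout, and that of cog-1 at 175384_at crosses 0.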

How the data were processed

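Total RNA of whole L4 larvae (about 5 µg) was labelled with biotin and hybridized to 6 Affymetrix arrays, 3 of the alg-1 mutant and 3 of the wild type, per the labels' protocols. The authors deposited 1 value per probe set and array, and the submitters' processing notes name Affymetrix Power Tools. The version, the background correction and the way probes were summarized are not stated in any source used here. The log2 scale of the deposited values was inferred from their range (3.14 to 14.9). Array medians lay between 6.01 and 6.05 log2, and the values were used without further normalization. No detection calls were used, and precision is limited by having 3 arrays per group.

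After 77 Affymetrix control probe sets were left out, the genotypes were compared (mutant minus wild type) by lmFit and eBayes of limma 3.58.1 under R 4.3.3, two-sided, with Benjamini-Hochberg adjustment over 22548 probe sets. Every adjusted p of a gene is limma's. Gene names came from the platform annotation, with 20701 probe sets updated through a RefSeq table of assembly WBcel235, used for names alone. Counts over genes took, for each gene, the brightest probe set that carries 1 symbol. The limma code was tested on simulated data.

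The 9 genes and the lists were chosen with earlier results of these data known. All probe sets of the 9 genes are given. From each other list up to 4 genes with the smallest p among those that passed are named, besides those marked as singled out. Also named are sqv-2 and some genes for their dimmer probe sets. Alternatives covered normalization, centring, filters, the prior, array weights, shared probe sets, a threshold of 0.01, the mean of a gene's probe sets, a block for replicate number, and omission of each array in turn. Promoter motifs were not analysed here.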

Additional observations from a re-analysis of the deposited data

How the results depend on the processing

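Of 176 recomputed differences of the 11 probe sets, 169 kept their direction where called and their side of the threshold, and 7 passed it where the deposited values had not. These were egl-17 with quantile normalization (0.30), centring on hybridization controls (0.37), array weights (0.29) and without wild type replicate 3 (0.33), zmp-1 without that array (0.26), and cog-1 at 189136_at with the replicate block (−0.31) and without wild type replicate 1 (−0.39), all log2. The uncalled cog-1 difference at 175384_at ranged from −0.15 to 0.11. The cause of these shifts was not tested. The count of vulval probe sets that rose was 1 above the median signal and 1 without probe sets ending in _s_at or _x_at, since fewer were tested. With 1 array left out it ranged from 2 to 4, as did the count of genes that rose. The count of vulval genes was 3 (1 higher) without the _s_at and _x_at probe sets, and 1 gene was higher above the median signal. Over all probe sets, 4715 passed without those endings (2171 higher, 2544 lower) and 4767 at a threshold of 0.01 (2213 higher, 2554 lower). Centring on hybridization controls left 2201 lower, with 68.8% of calls higher against 44% as deposited, and 0 falls in the tube, anchor cell and fibroblast growth factor lists. With 1 array left out, calls over all probe sets ranged from 5443 to 7833, and the rises among them from 2444 to 3385. Whether the replicate numbers pair the arrays was not settled by the arrays' deviations. The correlations were weak, at 0.21, 0.13 and 0.081 for numbers 1, 2 and 3, yet 5 of 6 arrays correlated best with their own number. With the replicate block 7766 probe sets passed, 7 of them vulval. The signals of egl-17 and egl-38 were weak, and the part of signal level in their results was not tested.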
